A study of Mus with 4 samples.

Results

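Genes that mark outer hair cells or set hair cell fate were followed in cochlear RNA of mice treated with RESTART v3 and of untreated mice. The 8 genes were chosen by name, with earlier results of these data known: Slc26a5, Ocm, Chrna9, Chrna10, Ikzf2, Pou4f3, Gfi1 and Atoh1. The deposited table lists 6 of them among its 21230 genes. Ikzf2, a zinc finger factor that outer hair cells need to mature, and Atoh1, the factor that starts hair cell formation, are not among its rows and were not analysed here.

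Both groups carry the Otof c.1315 C > T change (R439X in the labels), a premature stop in the gene for otoferlin, which inner hair cells need to release transmitter. The 2 RESTARTv3 libraries come from mice given RESTART v3 through the AAVie vector, which was injected into the inner ear by way of the posterior semicircular canal. RESTART v3 combines a guide snoRNA with an isoform of the pseudouridine synthase DKC1, which together edit the premature stop codon, and a transfer RNA that favours its readthrough. The 2 untreated libraries come from mutant mice without this treatment, so injection, vector and editor cannot be told apart. Age at collection and the number of mice behind each library are not given for these samples in the sources used here. The study chose the AAVie serotype for its expression in inner hair cells, whereas most of the genes described here mark outer hair cells or both hair cell types. RNA came from the whole cochlea, in which hair cells are few, and in such bulk RNA fewer cells of a type and less RNA per cell cannot be told apart.

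The mammalian cochlea has a single row of inner hair cells, which pass sound on to the auditory nerve, and several rows of outer hair cells, which amplify the motion of the basilar membrane. Outer hair cells change length through prestin, the motor protein encoded by Slc26a5, and buffer calcium with oncomodulin, encoded by Ocm. They receive inhibitory cholinergic fibres from the brainstem through a receptor built from the subunits encoded by Chrna9 and Chrna10. Hair cells form when Atoh1 is switched on, and they survive and mature with the help of Pou4f3 and Gfi1.

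The values are RPKM, read counts normalised for gene length and library total. Here a gene counts with its full span, introns and all, which lowers the RPKM of long genes. Reads were recovered with a gene span chosen to give whole numbers, so that all genes come out whole by construction. At the span annotated in GRCm38.p6, an earlier build than the GRCm39 of the files, 11568 of 20325 matched genes gave whole reads. Slc26a5 and Pou4f3 are among them. Reads of Ocm and Chrna9 rest on a span near the annotated one, and those of Chrna10 and Gfi1 on the smallest span that gave whole reads. The depth was 71144247 and 61040077 reads in replicates RESTARTv3 1 and 2, against 39650172 and 56739609 reads in the untreated libraries, which are called untreated A and B in no given order. Of these reads 57.9% and 28.6% fell in listed genes in RESTARTv3 1 and 2, against 52.9% and 60.4% in untreated A and B. RESTARTv3 2 thus lies low for most genes, with a median log2 ratio of RESTARTv3 1 to RESTARTv3 2 of 1.08 over 19224 tested genes. Values scaled between libraries by the median of ratios are given beside the deposited ones for this reason.

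Prestin and oncomodulin, which define outer hair cells, did not separate the groups on the deposited scale. Slc26a5 was at 0.169 and 0.0781 RPKM in RESTARTv3 1 and 2 (681 and 270 reads), against 0.127 and 0.217 RPKM in untreated A and B (286 and 697 reads). RESTARTv3 1 and untreated B were the higher library of each group, and the groups overlap. The means were 0.124 ± 0.0643 RPKM in RESTARTv3 and 0.172 ± 0.0633 RPKM in untreated cochleae (SD, n = 2 each). The log2 change of Slc26a5, RESTARTv3 minus untreated on log2(RPKM + 0.01), was -0.49 with a standard error of 0.95 (limma, Benjamini-Hochberg adjusted p = 1.0). After scaling between libraries the spread of Slc26a5 shrank to 0.131 and 0.123 RPKM in the RESTARTv3 libraries and 0.137 and 0.165 RPKM in the untreated ones. There both RESTARTv3 libraries lay below both untreated ones, as they did for 21.5% of all genes. The log2 change on scaled values was -0.23, with a 95% interval that ran between -1.16 and 0.70 (limma, Benjamini-Hochberg adjusted p = 0.827).

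Ocm, the calcium buffer of outer hair cells, followed the same order of libraries. It was at 0.328 and 0.191 RPKM in RESTARTv3 1 and 2 (725 and 362 reads), against 0.237 and 0.428 RPKM in untreated A and B (292 and 755 reads). The groups overlap on both scales. The log2 change was -0.34 (SE 0.99) on the deposited scale (limma, Benjamini-Hochberg adjusted p = 1.0). On scaled values it was -0.06, with a 95% interval of -1.03 to 0.92 (limma, Benjamini-Hochberg adjusted p = 0.962). The interval leaves room for a difference of almost 1 on the log2 scale in either direction, so at 2 libraries a group these values do not show that the level was the same. The sign of the Ocm change turned positive without untreated B, at 0.08 on the deposited scale.

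**Figure D1:**
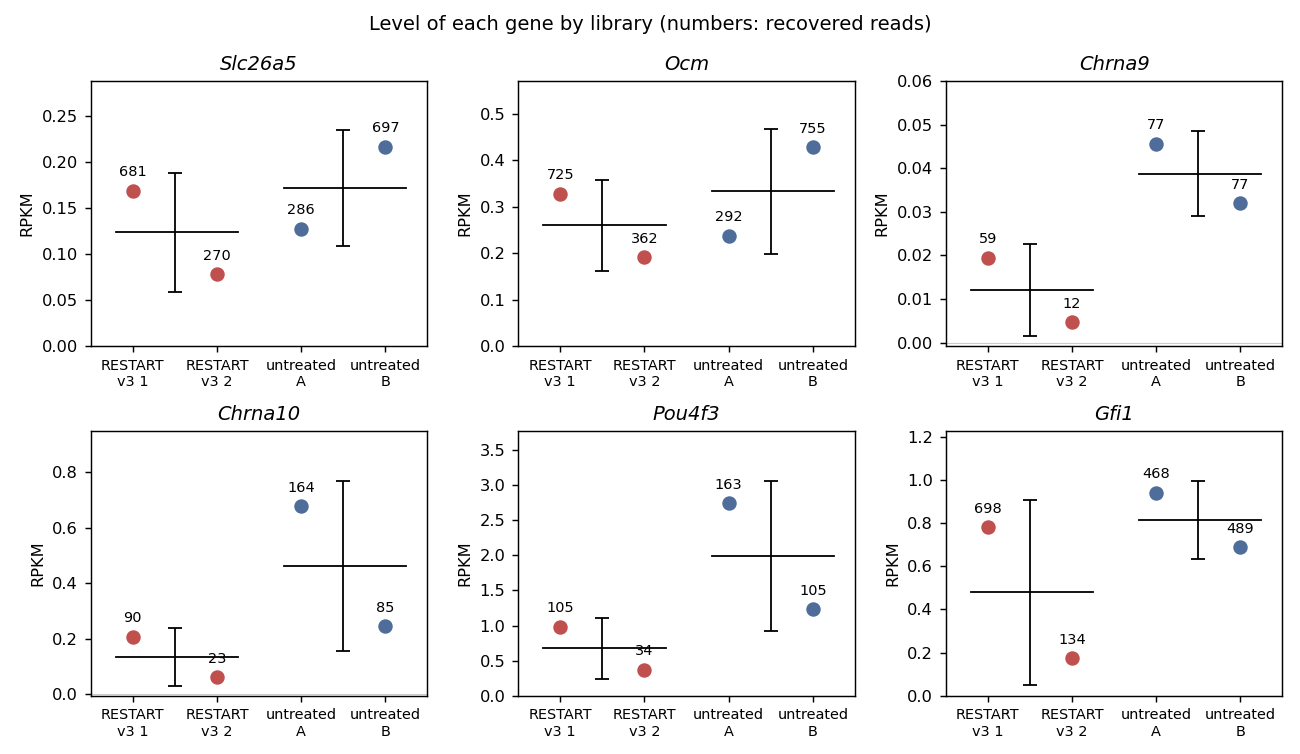
Level of each listed gene in RPKM (vertical axes, linear) in RESTARTv3 1 and 2 (red) and untreated A and B (blue), with the number of recovered reads above each point. Black lines are group means with the SD of 2 libraries. Slc26a5 and Ocm are higher in untreated B than in A, while Chrna9, Chrna10, Pou4f3 and Gfi1 are higher in A.

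Both subunits of the efferent receptor had their 2 lowest values in RESTARTv3 cochleae, without passing the test. On the deposited scale 25.2% of all listed genes had this order. Chrna10, which the receptor needs for full function, was at 0.208 and 0.0618 RPKM in RESTARTv3 1 and 2 (90 and 23 reads). It stood at 0.679 and 0.246 RPKM in untreated A and B (164 and 85 reads). Untreated A stands apart with 2.76 times the value of library B, and library B is close to RESTARTv3 1. The means were 0.135 ± 0.103 RPKM in RESTARTv3 and 0.462 ± 0.306 RPKM in untreated cochleae (SD, n = 2 each). The log2 change of -1.75 had a standard error of 0.98 on the deposited scale (limma, Benjamini-Hochberg adjusted p = 1.0). Without untreated A the scaled log2 change was -0.51, and without untreated B it was -2.46. In the annotation of GRCm38.p6 Chrna10 overlaps Art1, an ADP-ribosyltransferase gene. Art1 had 49 and 25 reads in the RESTARTv3 libraries and 47 and 63 reads in the untreated ones. The kit marks the strand, but the sources used here do not say whether counting used it, so reads of these neighbours may not be fully separated.

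Chrna9, the subunit without which the hair cell receptor does not form, was the lowest of the 6 genes in RPKM. It was at 0.0195 and 0.00462 RPKM in RESTARTv3 1 and 2 (59 and 12 reads). It stood at 0.0457 and 0.0319 RPKM in untreated A and B, with 77 reads in each. The 12 reads of RESTARTv3 2 carry an exact Poisson 95% interval of 6.20 to 21.0 reads, which covers counting error only. Chrna9 overlaps 4930480C01Rik in the annotation of GRCm38.p6, a gene not analysed here, so its reads may not be fully separated either. The log2 change was -1.22 (SE 0.63) on the deposited scale (limma, Benjamini-Hochberg adjusted p = 1.0), where the pseudocount of 0.01 RPKM is of the size of the lower values and holds the change down. On recovered reads, scaled between libraries, it was -1.66 with a standard error of 0.60 and an unadjusted p of 0.0324 (limma voom, Benjamini-Hochberg adjusted p = 0.765). Chrna9 was the only one of the 6 genes with an unadjusted p under 0.05 on recovered reads, where 0.769% of 18467 genes were lower with such a p. On those reads 0 of all 18467 genes passed the adjusted p, and 394 had an unadjusted p under 0.05.

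Neither hair cell transcription factor passed the test. Pou4f3, a POU domain factor that keeps hair cells alive, was at 0.986 and 0.372 RPKM in RESTARTv3 1 and 2 (105 and 34 reads). It stood at 2.75 and 1.24 RPKM in untreated A and B (163 and 105 reads). Both RESTARTv3 libraries lay below both untreated ones, as they did for 25.2% of all listed genes on the deposited scale. Untreated A again holds the highest value. The means were 0.679 ± 0.434 RPKM in RESTARTv3 and 1.99 ± 1.07 RPKM in untreated cochleae (SD, n = 2 each), and the log2 change of -1.59 had a standard error of 0.96 (limma, Benjamini-Hochberg adjusted p = 1.0). On scaled values Pou4f3 was at 0.763 and 0.587 RPKM in the RESTARTv3 libraries and 2.96 and 0.939 RPKM in the untreated ones. The scaled log2 change was -0.45 without untreated A and -2.14 without untreated B.

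Gfi1, a zinc finger repressor that hair cells need for survival, was at 0.783 and 0.175 RPKM in RESTARTv3 1 and 2 (698 and 134 reads). It stood at 0.942 and 0.688 RPKM in untreated A and B (468 and 489 reads). RESTARTv3 1 lies between the untreated libraries on both scales. On scaled values Gfi1 was at 0.606 and 0.276 RPKM in RESTARTv3 1 and 2, against 1.02 and 0.522 RPKM in untreated A and B. That gap between RESTARTv3 libraries was narrower than the one of scaled Chrna10 between untreated A and B (0.732 and 0.187 RPKM). RESTARTv3 2 lies low for most genes on the deposited scale. There Gfi1 was 4.47-fold lower in it than in RESTARTv3 1, the widest gap within a group among the 6 genes. The log2 change was -1.09 (SE 0.98) (limma, Benjamini-Hochberg adjusted p = 1.0). Gfi1 also works in granulocyte precursors of the blood, and all 6 markers of these cells on the list were listed in the table, with summed levels of 100 and 32.5 RPKM in RESTARTv3 1 and 2 and 45.7 and 66.4 RPKM in untreated A and B. The part of such cells in the Gfi1 values was not tested. Reads of Gfi1 came out whole at a span of 12533 bases, which is also the span used to recover reads of its paralog Gfi1b. The annotation gives Gfi1 itself 9151 bases. With 9151 bases its RPKM would be 1.37-fold higher in every library, with no effect on differences between libraries.

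By mean RPKM the order of levels was Pou4f3, Gfi1, Ocm, Chrna10, Slc26a5 and Chrna9 in RESTARTv3 cochleae, and Pou4f3, Gfi1, Chrna10, Ocm, Slc26a5 and Chrna9 in untreated ones. In RESTARTv3 cochleae the ranges of neighbours in this order overlapped, except that Chrna9 lay apart below Slc26a5. In untreated cochleae they overlapped for Chrna10 and Ocm and were apart for the other neighbours, by a narrow gap for Gfi1 (0.688 RPKM in untreated B) and Chrna10 (0.679 RPKM in untreated A). With 9151 bases as its span Gfi1 would be at 1.29 and 0.942 RPKM in untreated A and B, which overlaps Pou4f3 and widens the gap to Chrna10. The order depends on gene span, which is 1497 bases for Pou4f3 and 56604 bases for Slc26a5. In recovered reads the order differs, with 134 to 755 reads per library for Slc26a5, Ocm and Gfi1, and 12 to 164 for Chrna9, Chrna10 and Pou4f3.

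Read against all genes, 3 of the 6 genes (Chrna9, Chrna10 and Pou4f3) had both RESTARTv3 libraries below both untreated ones on the deposited scale, where 25.2% of all listed genes did. On scaled values this held for 4 of the 6, with Slc26a5 added, against 21.5% of all genes. None of the 6 had both RESTARTv3 libraries above both untreated ones on either scale, against 2.24% of all genes on the deposited and 16.2% on the scaled values. The median log2 change of the 6 genes was -1.15 on the deposited scale and -0.96 after scaling, beside -0.26 and -0.01 for all tested genes. The genes were chosen with earlier results of these data known, so these counts and medians are descriptions only. Of 19224 genes tested on the deposited scale, 0 passed an adjusted p of 0.05 (limma, Benjamini-Hochberg), which is 0% in the background and 0 of the 6 genes, and 232 had an unadjusted p under 0.05. None of the 6 genes was among these, where 1.06% of all genes were lower in RESTARTv3 with such a p. On scaled values 0 of 19170 passed and 581 had an unadjusted p under 0.05 (limma), with Chrna9 alone of the 6 among them, where 1.19% of all genes were lower with such a p. Chrna9, Chrna10 and Pou4f3 passed only in the scaled and recovered-read fits that left out untreated B. There untreated A alone stands for its group, and 43.8% and 47.5% of all tested genes passed, with 23.0% and 26.2% of all genes lower in RESTARTv3 (limma and limma voom, Benjamini-Hochberg).

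**Figure D2:**
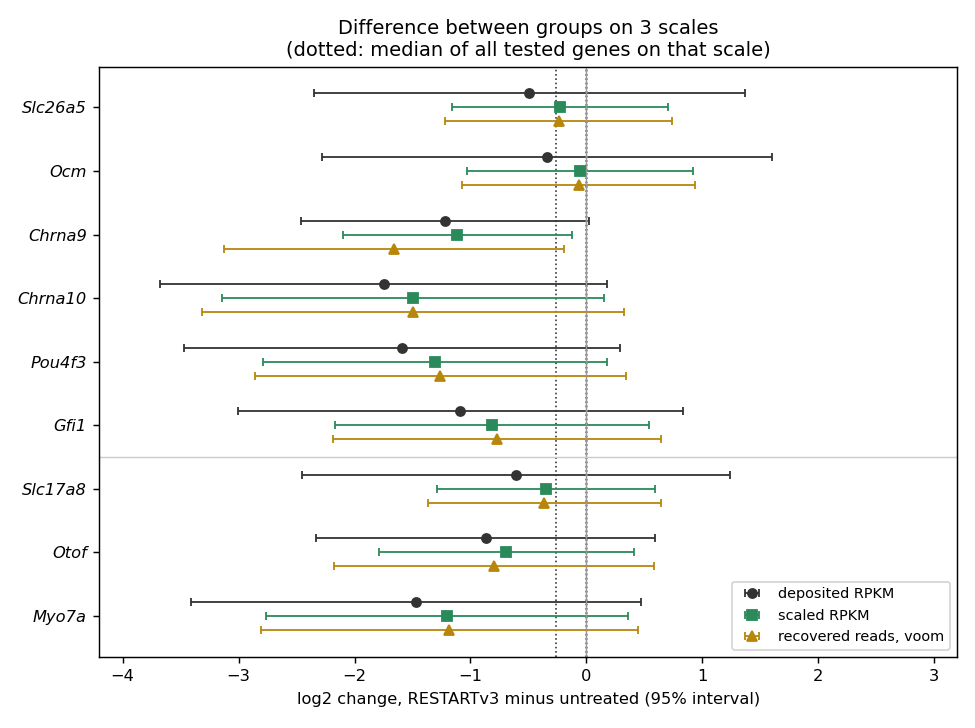
Log2 change, RESTARTv3 minus untreated, with 95% intervals (horizontal axis) for the 6 genes and, under the grey line, 3 other hair cell genes, on deposited RPKM, RPKM scaled between libraries, and recovered reads. Dotted lines are medians of all tested genes on each scale. All 9 genes lie below 0, and of the 6 only Chrna9 has intervals that end below 0, on scaled RPKM and recovered reads, without an adjustment for the number of genes.

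Ratios of genes within a library do not depend on how libraries were scaled, though they can carry the differences by gene span given below. These ratios split the 6 genes. Slc26a5 and Slc17a8, which loads the synaptic vesicles of inner hair cells with glutamate, stood in nearly the same ratio everywhere, at 1.04 and 1.20 in RESTARTv3 1 and 2 and at 1.0 and 1.05 in untreated A and B. The level of this outer hair cell gene relative to that inner hair cell gene therefore spanned 1.20-fold over 4 libraries whose Slc26a5 level ran between 0.0781 and 0.217 RPKM. The log2 difference, RESTARTv3 minus untreated, was 0.13 (exact permutation test, 2-sided, p = 0.667). The share of all genes that keep such a ratio to Slc26a5 was not computed. Slc1a3, a supporting cell marker, followed the same order of libraries as Slc26a5. It was at 0.820 and 0.383 RPKM in RESTARTv3 1 and 2, and at 0.521 and 0.938 RPKM in untreated A and B. The steadiness is therefore not shown to be particular to hair cell genes. Nor does it hold for every inner hair cell gene. Otof was at 0.0466 and 0.0154 RPKM in RESTARTv3 1 and 2. It stood at 0.0754 and 0.0462 RPKM in untreated A and B, higher in A where Slc26a5 was higher in B. Ocm stood at 1.94 and 2.44 times Slc26a5 in the RESTARTv3 libraries and at 1.86 and 1.97 times in the untreated ones, a span of 1.31-fold, with a log2 difference of 0.18 (exact permutation test, p = 0.667).

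The other 4 genes did not keep a fixed ratio to Slc26a5. Chrna10 stood at 1.23 and 0.791 times Slc26a5 in RESTARTv3 1 and 2 and at 5.32 and 1.13 times in untreated A and B, a span of 6.73-fold. Pou4f3 stood at 5.83 and 4.76 times in the RESTARTv3 libraries and at 21.6 and 5.70 times in the untreated ones. Gfi1 stood at 4.63 and 2.24 times in the RESTARTv3 libraries and at 7.39 and 3.17 times in the untreated ones. For these 3 genes the ratio in untreated B lay between those of both RESTARTv3 libraries, and untreated A alone lay apart. Of the genes set against Slc26a5 here, only Chrna9 had a ratio that separated the groups. This ratio was 0.115 and 0.0592 in RESTARTv3 1 and 2, below the 0.359 and 0.147 of untreated A and B. Its log2 difference was -1.47 (exact permutation test, 2-sided, p = 0.333, the smallest p that 2 against 2 libraries can give). The ratio in RESTARTv3 2 rests on 12 reads of Chrna9. The share of all genes whose ratio to Slc26a5 separates the groups was not computed, so how unusual this order is was not tested. After Benjamini-Hochberg adjustment over the 6 ratios every p of these exact permutation tests was 0.667.

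**Figure D3:**
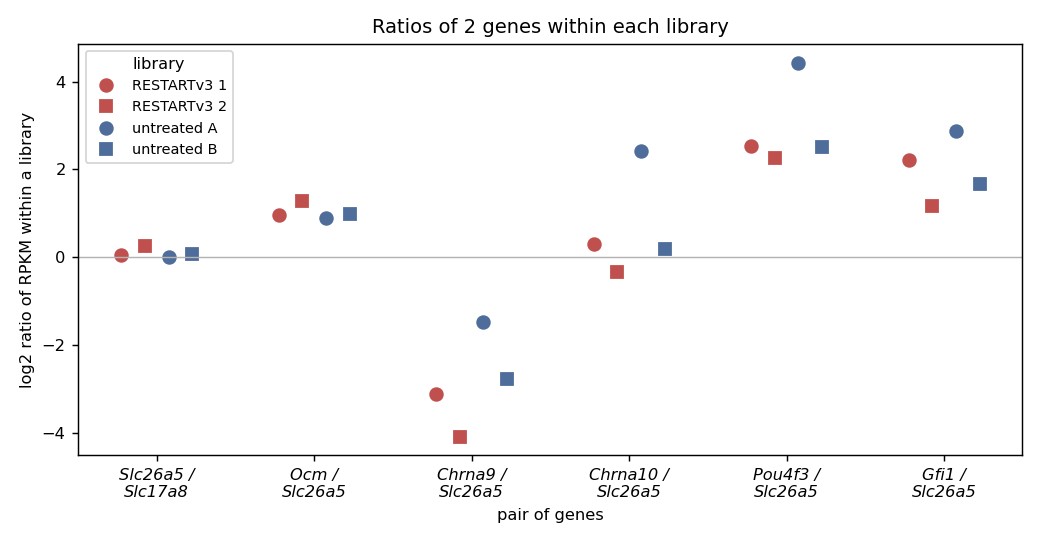
Log2 ratio of RPKM of 2 genes within each library (vertical axis) for 6 pairs, with RESTARTv3 replicates in red and untreated libraries in blue. Slc26a5 over Slc17a8 and Ocm over Slc26a5 lie close together in all 4 libraries, and the other 4 ratios are highest in untreated A.

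The untreated libraries differed from each other along gene span, and the 6 genes differ in span. The median log2 ratio of untreated A to untreated B was 0.25 for 2116 tested genes under 2 kb and -0.79 for 3848 genes over 50 kb. Pou4f3 and Chrna10, of short span, had log2 ratios of 1.15 and 1.47, above the medians of 0.25 and -0.29 of their span classes. Slc26a5 and Ocm, of longer span, had -0.77 and -0.85, near the medians of -0.79 and -0.72 of theirs. Gfi1 and Chrna9 had 0.45 and 0.52, where their span classes had -0.48 and -0.72. The class of Gfi1 rests on the span of 12533 bases. With the annotated 9151 bases it would be in the class of 2 to 10 kb, with a median of -0.29. Myo7a, a motor of the hair bundle, spans 68470 bases and had 1.35, so long hair cell genes are found on both sides. The part of gene span in these differences was not tested.

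**Figure D4:**
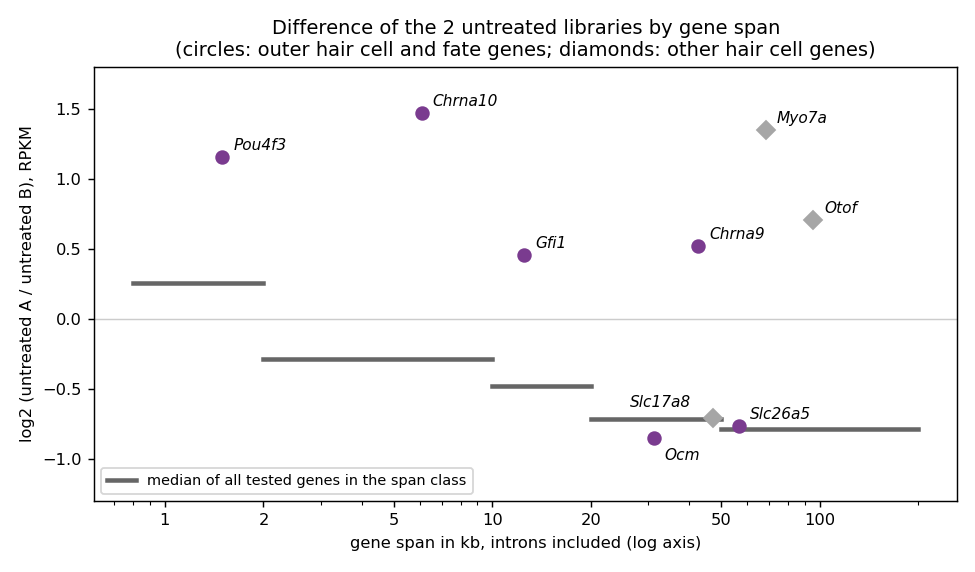
Log2 ratio of RPKM in untreated A to untreated B (vertical axis) against gene span in kb (horizontal axis, log scale) for the 6 genes (circles) and 3 other hair cell genes (diamonds), with grey bars for the median of all tested genes in each span class. Slc26a5, Ocm and Slc17a8 lie near the bars, and Pou4f3, Chrna10, Chrna9, Gfi1, Otof and Myo7a lie above them.

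Other hair cell genes were read from lists chosen by known role, with earlier results of these data known. Of 5 listed genes known from outer hair cells, 0 passed the adjusted p (limma, Benjamini-Hochberg), and the median log2 change on scaled values was -0.86. Strc, which encodes stereocilin of the hair bundle tips, was at 0.223 and 0.0696 RPKM in RESTARTv3 1 and 2 and at 1.1 and 0.328 RPKM in untreated A and B, in the order of Chrna10. Lbh, a transcription cofactor of outer hair cells, was at 5.29 and 2.61 RPKM in the RESTARTv3 libraries and at 4.31 and 4.99 RPKM in the untreated ones. Its scaled log2 change was -0.03, close to that of Ocm.

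Among 13 listed genes put on the list for both hair cell types, 0 of the 12 tested passed, with a median scaled log2 change of -0.60. Calb2, a calcium-binding protein, was at 4.32 and 1.62 RPKM in the RESTARTv3 libraries and at 4.53 and 5.26 RPKM in the untreated ones. The part of hair cells in the Calb2 level of whole cochlear RNA was not tested. Myo6, a myosin at the base of the hair bundle, was at 0.831 and 0.40 RPKM in the RESTARTv3 libraries and at 0.459 and 0.966 RPKM in the untreated ones, in the order of Slc26a5. Of 5 inner hair cell genes 0 passed and the median was -0.35, with Tbx2, which keeps inner hair cells from becoming outer ones, at 0.599 and 0.268 RPKM in the RESTARTv3 libraries and at 1.65 and 0.629 RPKM in the untreated ones. Atp2a3, the highest of the 5 by mean RPKM, was at 2.74 and 0.935 RPKM in RESTARTv3 1 and 2. It stood at 2.04 and 2.25 RPKM in untreated A and B, so its highest value was in RESTARTv3 1. Its scaled log2 change was -0.13. Slc17a8 was at 0.162 and 0.0649 RPKM in RESTARTv3 1 and 2 and at 0.127 and 0.207 RPKM in untreated A and B. Both patterns seen among the 6 genes, high in untreated A or high in untreated B, thus occur among inner hair cell genes as well.

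The regulators around hair cell fate were read in the same way. Of 21 genes of the Notch pathway, Id factors, prosensory factors and other transcription factors, 20 were listed and tested and 0 passed (limma, Benjamini-Hochberg). Their median scaled log2 change was -0.56, and 16 of the 20 lay below the median of all genes. Id3, an inhibitor of basic helix-loop-helix factors such as Atoh1, was at 20.5 and 11.0 RPKM in RESTARTv3 1 and 2 and at 37.4 and 23.3 RPKM in untreated A and B. Id2, of the same family, was at 18.3 and 10.2 RPKM in the RESTARTv3 libraries and at 6.90 and 23.1 RPKM in the untreated ones, so family members split between both patterns. Of 14 other nicotinic receptor subunits 9 were listed, of which 7 were tested and 0 passed, with a median scaled log2 change of -0.67. Chrnb1, the highest of these subunits by mean RPKM, had a scaled log2 change of -0.07. Chrnb2, a subunit of neuronal receptors and the next by mean RPKM, was at 0.251 and 0.0937 RPKM in the RESTARTv3 libraries and at 0.487 and 0.288 RPKM in the untreated ones. Its scaled log2 change was -0.96. Of the 7 tested subunits 6 had a negative scaled change and 1 a positive one, in a range of -1.04 to 0.33. Of 19 close paralogs of the 8 genes 15 were listed and tested and 0 passed, with a median scaled log2 change of -0.14. Ikzf1, the lymphoid relative of Ikzf2, was at 0.907 and 0.292 RPKM in the RESTARTv3 libraries and at 0.258 and 0.687 RPKM in the untreated ones.

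Markers of other cell types also differed between libraries. Their lists were chosen with earlier results of these data known, so counts and medians set against all genes are descriptions only. The 7 supporting cell markers, all listed, had a median scaled log2 change of -0.61, with 0 passing (limma, Benjamini-Hochberg). Gjb2, a gap junction gene of the cochlear epithelium, was at 45.9 and 21.0 RPKM in RESTARTv3 1 and 2 and at 60.8 and 55.1 RPKM in untreated A and B. Gjb6, another gap junction gene, was at 13.5 and 6.97 RPKM in the RESTARTv3 libraries and at 7.52 and 15.6 RPKM in the untreated ones. Its scaled log2 change was 0.13, the only positive one of the 7, against -0.61 for Gjb2. The 10 T and natural killer cell markers, all listed, had a median of 0.80, and 8 of them had both RESTARTv3 libraries above both untreated ones on scaled values, against 16.2% of all genes. On the deposited scale 1 of the 10 did, against 2.24% of all genes. Their summed level was low in every library, at 1.65 and 0.775 RPKM in the RESTARTv3 libraries and at 0.581 and 1.04 RPKM in the untreated ones. The median scaled log2 change was 0.36 for the 6 granulocyte precursor markers, -0.36 for 6 neuron markers and -0.59 for the 5 of 6 muscle markers that were listed, with 0 passing in each (limma, Benjamini-Hochberg). The part of these cell types in the levels of the 6 genes was not tested.

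**Figure D5:**
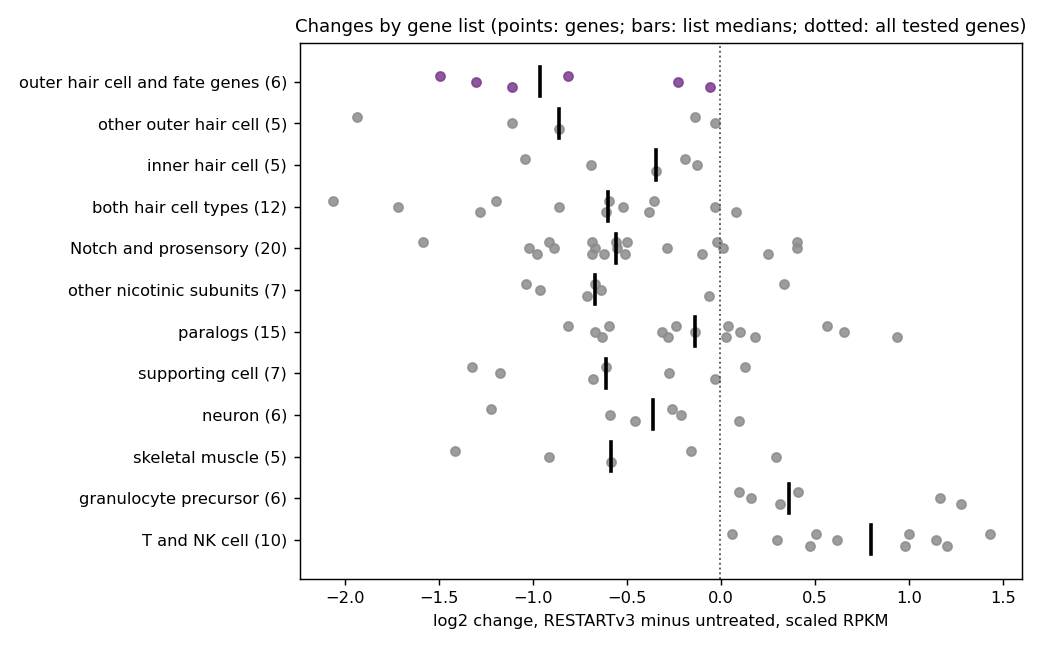
Log2 change on RPKM scaled between libraries (horizontal axis, RESTARTv3 minus untreated) for the genes of each list, with list medians as black bars and the number of tested genes in brackets. The 6 genes have a median of -0.96, the supporting cell markers -0.61 and the T and natural killer cell markers 0.80, where all tested genes have -0.01.

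The genes whose profile over the 4 libraries lay nearest to the median profile of the 6 genes were Tssk5, Erich2 and Pi16, with Euclidean distances of 0.0642, 0.0852 and 0.111 on centred log2 RPKM, out of 14670 genes compared. Tssk5 rests on 4 and 1 reads in the RESTARTv3 libraries and on 4 reads in each untreated one. Pi16, with 439 and 123 reads in the RESTARTv3 libraries and 449 and 423 in the untreated ones, is the best covered of these. With 4 libraries such likeness is a description only. Of the 6 genes, Gfi1 and Pou4f3 were nearest to the median profile, at 0.484 and 0.487, and Ocm was farthest, at 1.63.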

How the data were processed

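Per the methods and processing notes, the authors depleted ribosomal RNA, made stranded libraries with molecular identifiers, trimmed reads with cutadapt 4.2, used UMI-tools 1.0.0 for the identifiers and STAR 2.7.10b for alignment on GRCm39, and ran SAMtools 1.14 and HTSeq 1.14 for filtering and counting. They deposited RPKM for each gene in each library. A filter on replicate agreement preceded deposit. Its stated limit is 2-fold, yet read ratios within a group run between -3 and 3 on the log2 scale. No value is at zero. Both untreated columns have the same header, so neither has a replicate number.

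Whole reads were recovered from the deposited RPKM through 4 library totals and a gene span that gave whole reads within 0.001. For Chrna10 and Gfi1 this was the smallest such span. The main fit used limma 3.58.1 under R 4.3.3 (trended eBayes, 2-sided, Benjamini-Hochberg at 0.05, no covariates) on log2(RPKM + 0.01), for genes averaging at least 0.01 RPKM. This scale understates changes of low genes. Alternatives changed pseudocount, filter, scaling (median of ratios, quantile), reproducibility filter and test (limma voom, at least 10 reads on average), or left out a library. Ratios were compared by exact permutation. With 2 libraries a group, the p-values can rest only on spread between libraries, which may be technical. limma also shares variance between genes. In the main fit the standard errors came from the trend over all tested genes, not from the spread of a gene's own libraries.

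The genes and lists were chosen with earlier results of these data known. Named genes are the 6 listed ones, Otof, Slc17a8 and Myo7a, up to 3 of the highest by mean RPKM from each list, and the 3 nearest in profile.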

Additional observations from a re-analysis of the deposited data

How the results depend on the processing

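With 2 libraries a group, and 12 to 755 reads per library behind the 6 genes, differences of the size seen here cannot be told from the spread between libraries. The log2 changes of Gfi1, Chrna9, Chrna10 and Pou4f3 stayed negative under all alternatives run. Leaving out 1 library at a time, on any scale, gave -2.14 to -0.04 for Gfi1, -2.18 to -0.71 for Chrna9, -2.55 to -0.44 for Chrna10, -2.28 to -0.40 for Pou4f3, -1.0 to 0.020 for Slc26a5 and -0.75 to 0.098 for Ocm. The single positive value of Slc26a5 came without RESTARTv3 replicate 2 (0.020). Ocm was positive in 6 of 18 alternatives. These were the fits without untreated library B on all 3 scales (0.08, 0.10 and 0.09), without RESTARTv3 replicate 1 on scaled values and on recovered reads (0.05 and 0.08), and without RESTARTv3 replicate 2 (0.04). The log2 difference of the ratio of Gfi1 to Slc26a5 was 0.024 without untreated library A and -1.20 without untreated library B.

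Without untreated library B, Chrna9, Chrna10 and Pou4f3 passed on scaled values, at -1.47, -2.46 and -2.14 (limma, Benjamini-Hochberg adjusted p = 0.0425, 0.0202 and 0.0179). On recovered reads they passed at -2.09, -2.45 and -2.09 (limma voom, Benjamini-Hochberg adjusted p = 0.0327, 0.0132 and 0.0118). In those fits 8326 and 8713 genes passed. Over all genes, 0 passed in the main test (limma, Benjamini-Hochberg), and over the fits that left out a library the count ran between 0 and 8713. With the stated 2-fold reproducibility filter 178 of 1955 genes passed and none of the 6 genes was left to test. This filter was applied to reads not scaled for depth. It kept genes for a small spread within groups, which also enters the test, so the 178 cannot be set against the other counts. At a mean RPKM of at least 1 only Pou4f3 could be tested. With a pseudocount of 0.5 the change of Chrna9 was -0.07. The cause of these shifts was not tested, other than that fewer libraries or genes entered. No paired analysis was possible because the untreated columns share a name and carry no replicate number.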
